A study of Mus musculus with 4 samples.

Results

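The 10 genes described here were chosen by name as ligands, secreted antagonists and intracellular effectors of Wnt signalling: *Wnt4*, *Wnt5a*, *Wnt5b*, *Wnt9a*, *Frzb*, *Dkk3*, *Axin2*, *Ctnnb1*, *Lef1* and *Tcf7l2*. They are 10 of 18066 protein-coding genes that could be placed in both annotations used. For each gene, the peaks with a summit within 1 kb of an annotated transcription start site (TSS) were taken as promoter peaks. All peaks with a summit in the gene body or within 50 kb of it were taken as peaks around the gene. Among all peak intervals, these were 90 of 76242 in replicate 1 of Cho (Cho 1), 250 of 148330 in replicate 2 (Cho 2), 156 of 90971 in WT and 251 of 169591 in the sample with the enhancers deleted (deletion).

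The data are ATAC-Seq, in which the transposase Tn5 inserts sequencing adapters into open chromatin, from primary chondrocytes of the rib cartilage of newborn mice. Cho had 2 replicates, whose labels give no genotype. WT and the deletion, E160(delta/delta);E308(delta/delta), had 1 library each. By its label, the deletion library came from mice lacking both copies of E160 and E308. According to the paper, these are chromatin elements upstream of *Sox9*, and the WT mice were littermates of the deletion mice. The line was made in C57BL/6J mice by CRISPR editing in successive steps, heterozygotes were intercrossed, and cells were used within a few passages. Sex was not considered. With 1 library for each genotype, every WT and deletion value below compares libraries and has no replicate check, so no p-value is given.

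Wnt proteins are secreted ligands. In the canonical branch they bind Frizzled and LRP receptors and stop the destruction complex, in which AXIN proteins are scaffolds, from degrading β-catenin (encoded by *Ctnnb1*), which then enters the nucleus and binds TCF/LEF proteins on DNA. In cartilage, WNT9A and WNT4 are known from the forming joint, WNT5A and WNT5B from the growth plate, where they act largely without β-catenin, and FRZB as a soluble decoy that binds Wnt ligands.

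A peak's fold enrichment is its summit pileup over the background, with 1 added to both. The pileup, the number of tags over the summit, and the background were solved from the deposited values. Fold enrichment depends on depth and on the background at each summit, which can exceed the most frequent background of the library. The pileup divided by that most frequent background, called the scaled pileup here, is therefore given beside it at the promoters. The order of the libraries often differed there. The summit background equalled the most frequent one at 100% of intervals in Cho 1, 40.13% in Cho 2, 26.68% in WT and 39.67% in the deletion sample. The depth implied by the background was 4622 to 20816 tags per Mb, lowest in WT and highest in Cho 2. Cho 1 was called against 1 constant background, and Cho 2 lies on GRCm38 (mm10), while the other lists lie on NCBIM37 (mm9). At the targeted elements, the WT summit pileup was 31 at E160 and 26 at E308. The deletion library had no peak at E160 and a peak with a pileup of 4 at E308, a scaled pileup of 6.39 against 72.1 in WT. A call inside a deleted element goes against the label of the deletion sample, so each direction below refers to the sample labelled as the deletion, and the source of this peak was not tested. Promoter peaks of chondrocyte markers (*Sox9*, *Col2a1*, *Acan*, *Col9a1*, *Matn3* and *Col11a2*) were called for 6 of 6 genes in each library except Cho 1, where 4 were called. Both blood markers placed, *Ptprc* and *Cd79a*, had no promoter peak in any library. Peaks were called at 1 or 2 of 3 endothelial markers in every library, at none to 2 of 3 muscle markers, at none or 1 of 3 epithelial markers, and at 2 or 3 of 3 fibroblast or osteoblast markers. Of all genes, 62.6% had a promoter peak in Cho 1, 69.4% in Cho 2, 65.9% in WT and 71.5% in the deletion sample. Beside these shares, counts in such short lists say little about cell type. The part of other cells in the values below was not tested.

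The strongest distal WT peak of each gene is shown first, with a summit more than 1 kb from every TSS that GENCODE annotates in NCBIM37. It is shown because these sites exceeded the gene's own promoter peak in WT fold enrichment at 10 of 10 genes and in scaled pileup at 8 of 10. How often this holds over all genes was not counted, so it is not read as particular to these genes. RefSeq TSSs were not part of this rule. The RefSeq promoter sequences of *Gm36876* and *Gm34945*, found once in NCBIM37, start at 108841803 and 120885722. They lie within 1 kb of the *Axin2* and *Ctnnb1* summits, so those sites are distal by GENCODE alone. Each distal peak was the highest of several and so is a selected value. The 151 bases centred on each WT summit are from the plus strand of NCBIM37. Capitals mark the motifs searched on both strands: CTTTGAT (TCF/LEF), ACAAAG and ACAATG (SOX) and TGANTCA (AP-1). The reverse complement of ACAAAG is CTTTGT, which shares CTTTG with CTTTGAT, and TGANTCA reads alike on both strands.
Wnt4 distal site, chr4:136787648-136787798: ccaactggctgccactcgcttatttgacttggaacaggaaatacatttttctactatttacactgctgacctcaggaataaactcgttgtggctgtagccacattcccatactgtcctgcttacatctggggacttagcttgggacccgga
Wnt5a distal site, chr14:29346233-29346383: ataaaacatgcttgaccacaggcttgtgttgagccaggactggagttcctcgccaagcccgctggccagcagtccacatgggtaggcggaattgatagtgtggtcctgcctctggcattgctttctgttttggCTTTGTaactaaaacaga
Wnt5b distal site, chr6:119462774-119462924: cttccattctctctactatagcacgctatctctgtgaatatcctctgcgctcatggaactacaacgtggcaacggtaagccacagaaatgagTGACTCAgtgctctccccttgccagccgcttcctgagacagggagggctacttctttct
Wnt9a distal site, chr11:59159800-59159950: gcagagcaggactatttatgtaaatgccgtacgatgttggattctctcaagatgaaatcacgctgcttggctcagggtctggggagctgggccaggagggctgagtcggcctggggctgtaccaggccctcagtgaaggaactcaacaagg
Frzb distal site, chr2:80260462-80260612: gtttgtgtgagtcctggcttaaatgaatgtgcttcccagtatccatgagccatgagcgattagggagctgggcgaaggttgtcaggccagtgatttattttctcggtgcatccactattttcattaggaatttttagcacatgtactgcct
Dkk3 distal site, chr7:119313820-119313970: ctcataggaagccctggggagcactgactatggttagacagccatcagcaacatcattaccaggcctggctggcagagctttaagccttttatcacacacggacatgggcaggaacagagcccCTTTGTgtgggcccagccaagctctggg
Axin2 distal site, chr11:108842001-108842151: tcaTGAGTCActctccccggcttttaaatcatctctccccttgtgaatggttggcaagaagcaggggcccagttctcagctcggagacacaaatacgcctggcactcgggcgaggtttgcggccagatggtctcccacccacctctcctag
Ctnnb1 distal site, chr9:120885460-120885610: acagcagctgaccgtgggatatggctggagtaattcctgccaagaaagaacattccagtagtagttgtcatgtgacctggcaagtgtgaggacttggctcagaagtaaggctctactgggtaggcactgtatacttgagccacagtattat
Lef1 distal site, chr3:130788263-130788413: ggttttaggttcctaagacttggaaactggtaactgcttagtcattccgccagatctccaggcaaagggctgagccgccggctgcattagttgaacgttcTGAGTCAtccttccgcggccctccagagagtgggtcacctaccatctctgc
Tcf7l2 distal site, chr19:55951127-55951277: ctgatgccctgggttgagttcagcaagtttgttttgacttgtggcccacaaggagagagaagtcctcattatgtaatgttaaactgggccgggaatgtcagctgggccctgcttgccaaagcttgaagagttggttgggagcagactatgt

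Motifs were found in 5 of these 10 windows. TGANTCA lay in the windows of *Wnt5b*, *Lef1* and *Axin2*, starting 17 bp, 25 bp and −72 bp from the summit. The letters CTTTGT lay in those of *Wnt5a* and *Dkk3*, starting 58 bp and 48 bp from it. Neither CTTTGAT nor ACAATG was found. Over all 122 distal WT peaks around the genes, in windows of the same length, TGANTCA was in 20.5%, ACAAAG in 14.8%, and CTTTGAT and ACAATG in 1.64% each. The shares among 67846 distal WT peaks of the whole list were 21.2% for TGANTCA, 9.52% for ACAAAG, 1.52% for the TCF/LEF letters and 5.59% for ACAATG. These are matches of letters and show no binding.

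Promoter sequence was taken from RefSeq (GRCm38), whose table matched 8 of the 10 genes with 15 TSSs. In 7 of these, the 250 bases before the TSS lay wholly within Cho 2 peaks. The windows of *Wnt5b* and *Tcf7l2* are shown because they are the 2 of these 7 that held a motif, and that of *Axin2* because its gene is widely used as a readout of the pathway. Each is written in the direction of transcription.
Wnt5b promoter, minus strand, chr6:119544348-119544597: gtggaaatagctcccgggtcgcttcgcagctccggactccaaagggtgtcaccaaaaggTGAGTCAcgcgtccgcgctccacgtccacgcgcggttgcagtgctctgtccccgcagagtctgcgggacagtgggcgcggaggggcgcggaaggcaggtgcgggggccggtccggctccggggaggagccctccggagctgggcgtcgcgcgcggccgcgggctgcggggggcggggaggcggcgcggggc
Tcf7l2 promoter, plus strand, chr19:55741560-55741809: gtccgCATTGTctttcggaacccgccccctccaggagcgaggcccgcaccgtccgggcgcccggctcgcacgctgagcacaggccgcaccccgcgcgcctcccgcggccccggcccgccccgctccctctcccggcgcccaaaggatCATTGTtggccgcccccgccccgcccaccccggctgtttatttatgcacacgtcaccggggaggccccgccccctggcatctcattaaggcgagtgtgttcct
Axin2 promoter, plus strand, chr11:108920099-108920348: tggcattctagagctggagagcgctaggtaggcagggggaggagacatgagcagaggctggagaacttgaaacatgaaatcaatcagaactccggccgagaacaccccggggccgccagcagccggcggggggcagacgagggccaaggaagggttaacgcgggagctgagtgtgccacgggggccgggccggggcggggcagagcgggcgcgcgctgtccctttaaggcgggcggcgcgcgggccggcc

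The *Wnt5b* window shown held TGAGTCA, and that of *Tcf7l2* held CATTGT, the reverse complement of ACAATG, at 2 places. Over all 15 windows, 5 held a motif. Outside Cho 2 peaks, the window of another *Wnt5b* TSS, inside the gene, held CTTTGAT. Also outside them, windows of internal TSSs of *Lef1* and *Tcf7l2* held ACAAAG, that of *Lef1* with ACAATG as well. Among 32851 promoters of the same length, 6.75% held TGANTCA, 10.7% ACAATG, 16.5% ACAAAG and 3.21% CTTTGAT. GC content over the 15 windows ran from 40.8% to 85.2%, against a median of 52.4% over all promoters.

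The first question was whether the promoters of these genes were open in rib chondrocytes. Promoter peaks were called for 9 of the 10 genes in Cho 1, where 62.6% of all genes had one, and for all 10 in Cho 2 (69.4% of all genes), WT (65.9%) and the deletion sample (71.5%). In all 4 libraries together, 9 of 10 genes had one, against 58.8% of all genes. The missing call was *Dkk3* in Cho 1. The promoter peaks were modest. Their median fold enrichment was 9.71 in Cho 1, 9.50 in Cho 2, 8.95 in WT and 8.96 in the deletion sample. Over all genes with a promoter peak, the medians were 12.67, 17.8, 12.76 and 12.66. The genes below the median fold enrichment of all genes were 8 of 9 in Cho 1, 9 of 10 in Cho 2, 10 of 10 in WT and 8 of 10 in the deletion sample. By scaled pileup they were 8, 10, 8 and 9. The medians of scaled pileup over all genes with a promoter peak were 21.2, 68.5, 80.4 and 65.5. Over all genes Cho 1 was thus the lowest and WT the highest, and the order of libraries at single genes is read beside this. *Tcf7l2* and *Axin2* were the genes above the WT median of scaled pileup, at scaled pileups of 102.6 and 94.3.

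**Figure D1:**
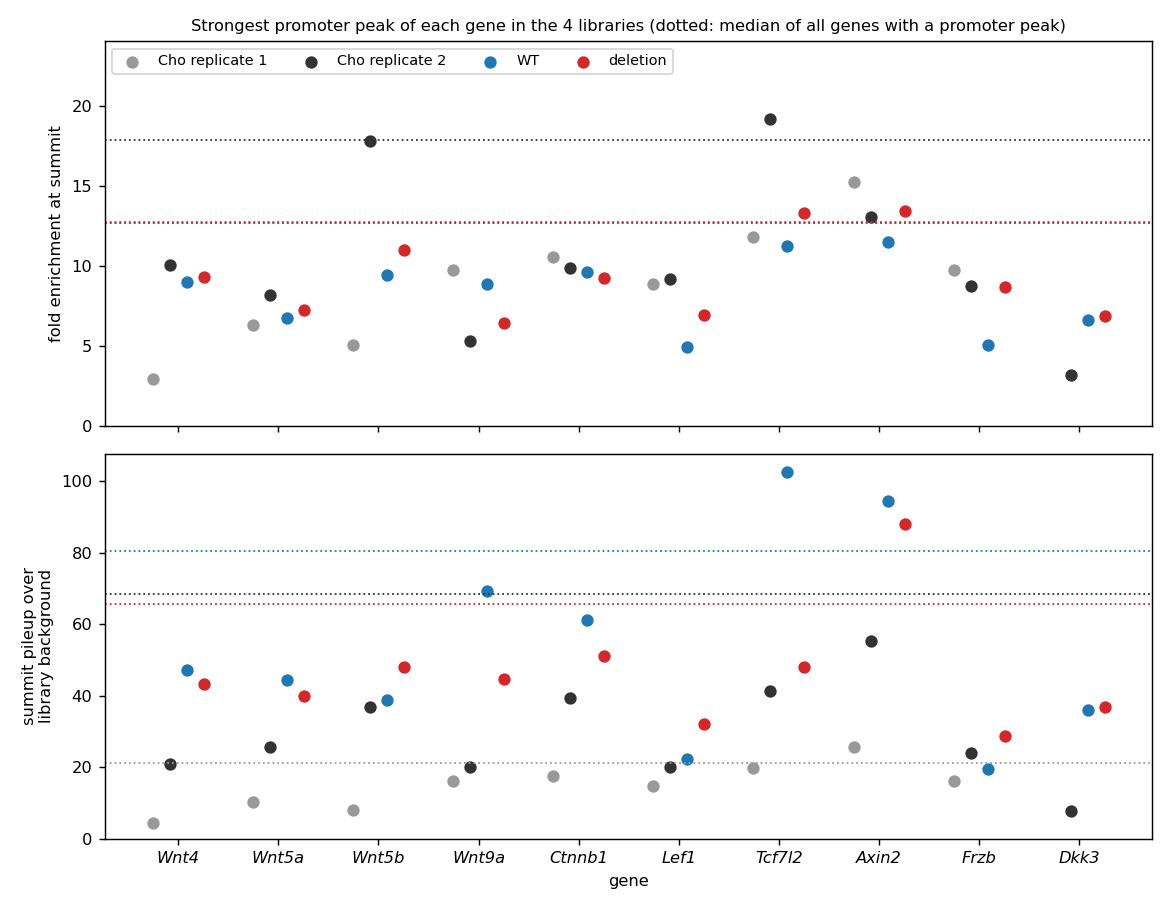
Strongest promoter peak of each gene, as fold enrichment (top) and as summit pileup over library background (bottom), with 1 point for each library and dotted lines at the median of all genes with a promoter peak in that library. Most points lie under their own library's line. *Wnt4* in Cho 1 is the lowest point at 2.96, and *Dkk3* has no point for Cho 1.

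Peaks were denser around these genes than around the median gene. The median over the 10 genes was 5.04 peaks per 100 kb in Cho 1, 13.9 in Cho 2, 9.34 in WT and 15.0 in the deletion sample. Over all genes it was 4.42, 9.04, 5.84 and 10.5. The genes differed widely. In WT it ran from 4.21 per 100 kb at *Lef1* and 4.42 at *Frzb* to 15.0 at *Wnt9a* and 16.1 at *Dkk3*, of which the last lay above 96.0% of all genes.

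**Figure D2:**
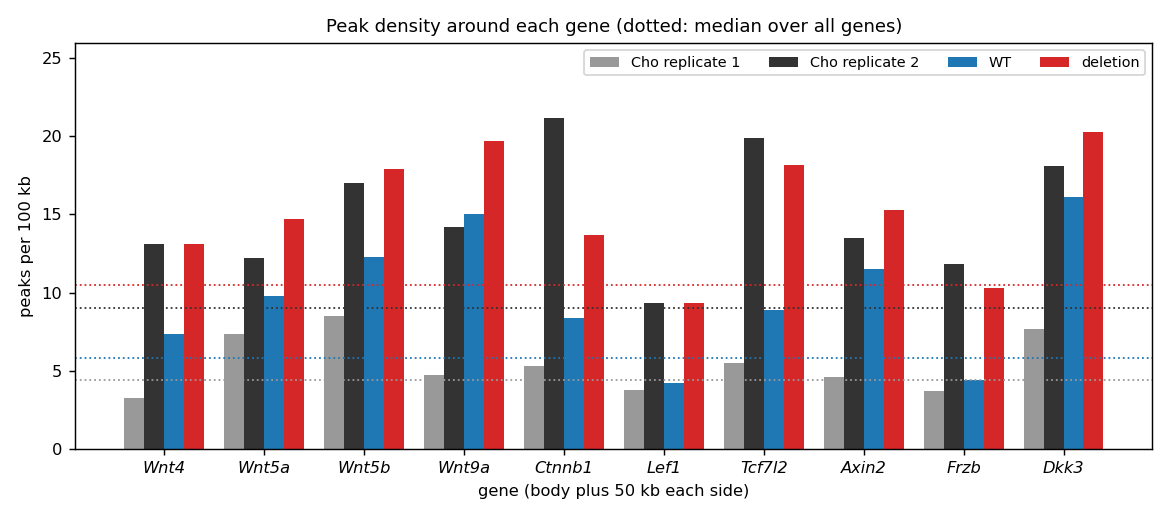
Peaks per 100 kb within the gene body plus 50 kb on each side, with 1 bar for each library and dotted lines at the median over all genes in that library. Genes such as *Dkk3*, *Wnt9a* and *Wnt5b* stand above the line in every library, whereas *Lef1* and *Frzb* fall below the WT and Cho 1 lines.

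Sites were then matched across the 4 libraries. The NCBIM37 lists were joined by overlap, directly or through another list. A Cho 2 summit was matched by its distance from RefSeq promoter sequences found once in NCBIM37, within 150 bp. Of 317 sites, 51 were called in all 4 libraries, 77 in 3, 76 in 2 and 113 in 1. Without Cho 1, 111 sites were called in every remaining library. Of the 51 sites, 14 were promoters of any gene, 24 were intronic, 12 intergenic and 1 exonic, so 37 lay away from any GENCODE TSS. Cho 2 alone had 63 sites and the deletion sample alone had 36. These are the lists with the most peaks, and the part of depth in these counts was not tested. Sites were not matched over all genes, so whether this sharing is particular to these genes was not tested.

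**Figure D3:**
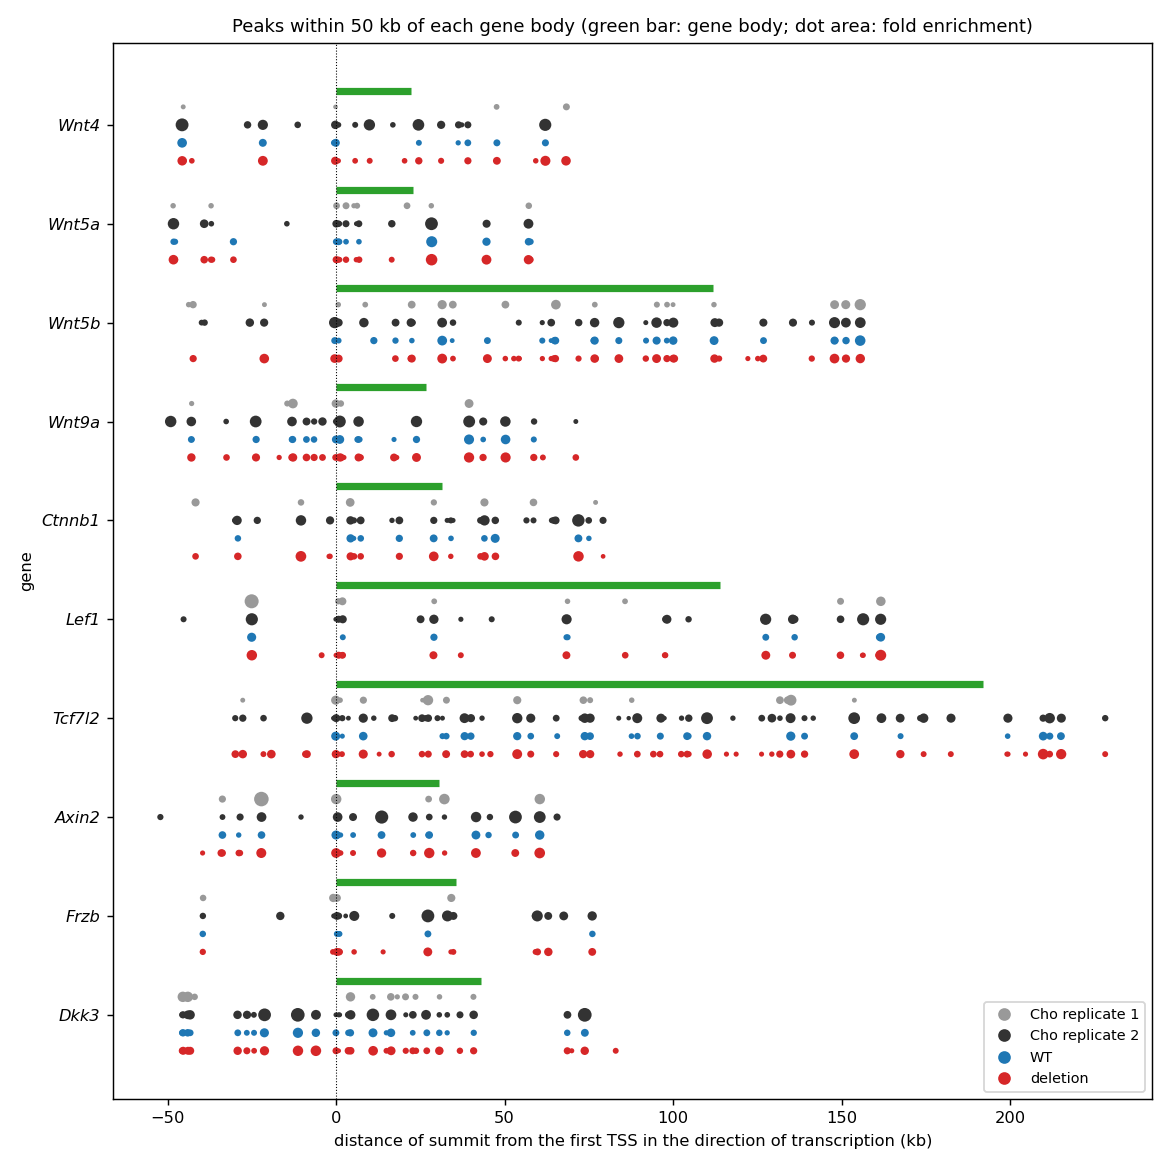
Peaks around each gene by the distance of the summit from the first TSS of the gene in NCBIM37, in kb along the direction of transcription. Each row is a library, dot area shows fold enrichment, and the green bar is the gene body. Vertical stacks of dots are sites found in several libraries, such as the one before *Lef1*, and the rows of Cho 1 hold the fewest dots.

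The ligands are taken first. *Wnt4* (chr4:136833404-136855641, plus strand) encodes a ligand of joints, kidney and gonads. At its promoter, fold enrichment reached 2.96 in Cho 1, 10.02 in Cho 2, 9.01 in WT and 9.28 in the deletion sample. Cho 1 stood apart from the other 3, with a pileup of 6, which is the smallest called in that list. In scaled pileup the values were 4.39, 20.95, 47.2 and 43.1, so that WT led. The Cho mean was 6.49 ± 5.00 (SD, n = 2). The promoter was the only 1 of 22 sites around *Wnt4* called in all 4 libraries. The distal site, −45681 bp from the TSS in intergenic sequence, had a fold enrichment of 23.1 in Cho 2, 13.0 in WT and 12.54 in the deletion sample. It had no Cho 1 peak, although a Cho 1 peak of 3.38 lay close by without overlap. In scaled pileup it was also high, at 109.9, 72.1 and 62.3.

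*Wnt5a* (chr14:29317936-29340633, plus strand) encodes a ligand that signals through the receptor ROR2 in the growth plate and limb bud. Its promoter fold enrichment was 6.33 in Cho 1, 8.21 in Cho 2, 6.74 in WT and 7.27 in the deletion sample, the narrowest range of fold enrichment among the ligands. In scaled pileup they ran wider, at 10.23, 25.6, 44.4 and 39.9. These were not all the same peak. In WT the strongest summit lay −423 bp from the TSS at 29319086, and in the deletion sample 33 bp from the TSS at 29317936. The WT peak had an overlapping deletion peak of 5.47, below its own 6.74. The distal site past the end of the gene had the highest WT fold enrichment of the 10, at 17.02. It reached 22.8 in Cho 2 and 18.57 in the deletion sample, against 4.22 in Cho 1, so it was called in all 4 libraries with a wide range. Every one of the 12 WT peaks around *Wnt5a* overlapped a deletion peak, as did all 6 around *Frzb*, against 95.9% of all WT peaks.

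*Wnt5b* (chr6:119382549-119494336, minus strand), the closest paralogue of *Wnt5a*, had 3 TSSs, and peaks were called at each of them in all 4 libraries. At the first TSS the fold enrichment was 4.22 in Cho 1, 17.8 in Cho 2, 6.74 in WT and 10.62 in the deletion sample. The second TSS, inside the gene, had 4.65, 12.49, 9.42 and 10.2 in the same order, and the third had 5.07, 15.4, 9.19 and 11.01. By fold enrichment the first led in Cho 2, the second in WT, and the third in the deletion sample and Cho 1. By scaled pileup the third led in every library, at 8.04, 47.02, 49.9 and 47.9. The intronic distal site printed above was the most even of the 10, at 11.82, 13.4, 13.34 and 13.48. In scaled pileup it was less even, at 19.74, 22.5, 52.7 and 44.7. Of 48 sites around the gene, 12 were called in all 4 libraries.

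*Wnt9a* (chr11:59120430-59147054, plus strand) encodes a ligand of the joint interzone and lies next to *Wnt3a*. Its promoter fold enrichment was 9.71 in Cho 1, 5.32 in Cho 2, 8.88 in WT and 6.42 in the deletion sample. By this measure Cho 1 and WT were the higher ones. In scaled pileup Cho 1 was the lowest, at 16.08, followed by Cho 2 at 19.93, the deletion sample at 44.7 and WT at 69.4. The distal site, 39443 bp from the TSS and past the gene's end, had 10.98, 19.71, 14.12 and 14.73. A site in an intron of *Wnt3a*, −42944 bp from the *Wnt9a* TSS, was also called in all 4 libraries, at 3.80, 12.85, 6.62 and 9.84. The *Wnt3a* promoter itself had a peak in the deletion sample alone, at 3.88.

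Among the secreted antagonists, *Frzb* (chr2:80252127-80287782, minus strand) encodes a Frizzled-related decoy made by articular chondrocytes. Its promoter fold enrichment was 9.71 in Cho 1, 8.74 in Cho 2, 5.07 in WT and 8.68 in the deletion sample. WT stood below the other 3 in fold enrichment. In scaled pileup, at 16.08, 24.02, 19.42 and 28.75, Cho 1 was the lowest and WT came next. The Cho 1 value came from a summit −835 bp from the TSS. At the site shared with the other libraries, Cho 1 had 8.45. The WT peak rested on a pileup of 7 and ranked above only 3.17% of WT promoter peaks. The intronic distal site had 22.9 in Cho 2, on a pileup of 83, 6.62 in WT, on a pileup of 8, and 11.07 in the deletion sample, on a pileup of 17.

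*Dkk3* (chr7:119259533-119302571, minus strand) encodes a divergent member of the Dickkopf family, whose other members block LRP receptors. Its promoter was the weakest of the 10 in Cho 2, at 3.22, and had no peak in Cho 1. It reached 6.64 in WT and 6.85 in the deletion sample. The scaled pileups kept this order, at 7.67, 36.1 and 36.7. The surrounding sequence was rich in peaks. It held 11 in Cho 1, 26 in Cho 2, 23 in WT and 29 in the deletion sample. All 7 sites called in every library were away from the promoter, and 4 of them were intronic. The distal site, −11324 bp from the TSS, had 26.05 in Cho 2, 14.64 in WT and 15.17 in the deletion sample, and none in Cho 1.

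*Axin2* (chr11:108781663-108812097, plus strand) encodes a scaffold of the destruction complex whose transcription rises on Wnt signalling in many tissues. It had the highest promoter fold enrichment of the 10 genes in Cho 1, WT and the deletion sample. The values were 15.2 in Cho 1, 13.03 in Cho 2, 11.5 in WT and 13.39 in the deletion sample, and the Cho mean was 14.12 ± 1.54 (SD, n = 2). The summit pileups were 35, 108, 34 and 55. Scaled, they were 25.6, 55.2, 94.3 and 87.8, with the Cho samples below the others. The medians over all genes were 21.2, 68.5, 80.4 and 65.5 in the same order. A site −22124 bp from the TSS had 29.56 in Cho 1, well above the promoter and the highest value of that sample around any of the genes. It had 13.19 in Cho 2 and 13.95 in the deletion sample, close to the promoter, and 8.09 in WT, below it. Its scaled pileup exceeded that of the promoter in Cho 1, at 50.4, and lay below it in the others, at 19.42, 27.7 and 36.7. The distal site past the end of the gene, printed above, was called in all 4 libraries at 15.2, 19.34, 12.4 and 15.92. *Axin2* lies on the same chromosome as the deleted elements, 3.86 Mb before the *Sox9* TSS.

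Among the nuclear effectors, *Ctnnb1* (chr9:120838334-120869625, plus strand) had the most even promoter. Its fold enrichment was 10.56 in Cho 1, 9.84 in Cho 2, 9.60 in WT and 9.24 in the deletion sample, with a Cho mean of 10.2 ± 0.508 (SD, n = 2). In scaled pileup the libraries were less alike, at 17.5, 39.4, 61.03 and 51.1. Of its 4 groups of TSSs, 1 had peaks, from 120842518 to 120842936. The strongest distal WT site lay in an intron of the neighbouring *Ulk4*. It had 7.87 in Cho 2, 11.27 in WT and 8.07 in the deletion sample, and none in Cho 1.

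*Lef1* (chr3:130813389-130927274, plus strand) encodes a DNA-binding partner of β-catenin with an HMG box. Its promoter fold enrichment was 8.87 in Cho 1, 9.15 in Cho 2, 4.95 in WT and 6.95 in the deletion sample, so both Cho samples stood above the other libraries. In scaled pileup this order was turned around, at 14.62, 19.93, 22.2 and 31.9. At the first TSS no WT peak was called, and Cho 1 had 5.49, Cho 2 had 7.05 and the deletion sample 6.95. At the second TSS the deletion sample had 6.30. The intergenic site −25051 bp from the TSS was stronger than the promoter in every library. Its fold enrichment was 27.45 in Cho 1, 20.65 in Cho 2, 11.58 in WT and 15.32 in the deletion sample. Its scaled pileups were 46.8, 33.7, 44.4 and 43.1 in the same order, nearest to the promoter in the deletion sample. With 27.45 it was also the second highest peak around any of the 10 genes in Cho 1, after the *Axin2* site at 29.56.

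*Tcf7l2* (chr19:55816300-56008144, plus strand) encodes the TCF4 protein, another HMG-box partner of β-catenin, and is the longest of the genes. Peaks were called in all 4 libraries at its first promoter and at an internal TSS. At the first promoter the fold enrichment was 11.82 in Cho 1, 9.05 in Cho 2, 11.25 in WT and 9.69 in the deletion sample. The internal TSS had 3.38, 19.16, 8.54 and 13.29 in the same order. The internal TSS thus led in Cho 2 and the deletion sample, and the first promoter in Cho 1 and WT. By scaled pileup the first promoter led in every library, at 19.74, 48.04, 102.6 and 75.1 against 5.12, 41.4, 36.1 and 47.9. The intronic distal site −16640 bp from an internal TSS was called in all 4 libraries, at 16.47, 13.78, 11.87 and 10.63. Around the gene there were 74 sites, of which 7 were called in all 4 libraries.

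The WT and deletion libraries were then compared, which addresses whether chromatin around these genes differed when E160 and E308 were absent. Fold enrichment of the strongest promoter peak was higher in the deletion sample at 8 of 10 genes, with a median log2 ratio of 0.16. Over 11875 genes called in both libraries the median was 0.02, and 53.5% were higher in the deletion sample. By scaled pileup the median over the 10 genes was −0.12 and over all genes −0.26, so the direction depended on the measure. At least 1.5-fold higher fold enrichment was found at 1 of 10 genes, *Frzb*, against 6.98% of all genes, and at least 1.5-fold lower at none of the 10, against 0.303% of all genes. For *Wnt5a*, *Wnt5b*, *Lef1* and *Tcf7l2* the strongest peaks of the libraries were different peaks. The scaled ratio of 0.467 that this gave at *Tcf7l2* (95% interval 0.279 to 0.777) compares different promoters of that gene.

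Each WT promoter peak was therefore also compared with the deletion peak that overlaps it, which existed for all 10 genes. The deletion library was then higher in fold enrichment at 6 genes and in scaled pileup at 3. Shares over all genes matched in this way were not counted. At *Frzb* the pileup was 7 in WT and 18 in the deletion sample, a scaled ratio of 1.48 with a 95% exact binomial interval of 0.59 to 4.19. At *Lef1* the ratio was 1.22 (0.50 to 3.28), and at *Dkk3* it was 1.02 (0.495 to 2.19). At the other genes it lay below 1, down to 0.645 (0.362 to 1.15) at *Wnt9a*. All 10 intervals, which cover counting error only, included 1, so none excluded equal scaled pileups. A ratio of 1 is not the typical value for these libraries. With the strongest peaks, the median log2 scaled ratio over all genes was −0.26. The share of all genes whose interval includes 1 was not counted. The width of the intervals leaves room for changes of about the size of the bounds.

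**Figure D4:**
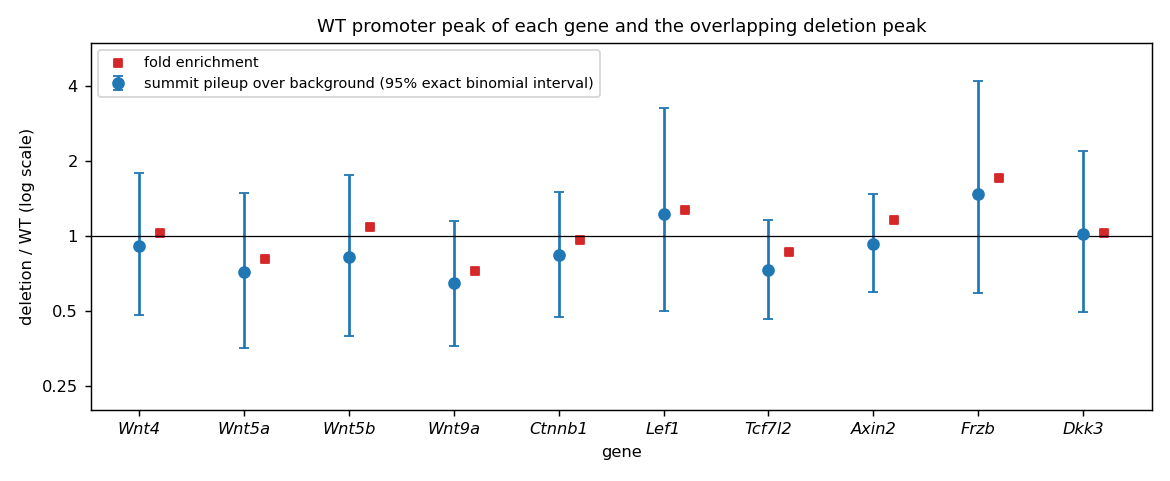
Ratio of deletion to WT at the WT promoter peak of each gene and the deletion peak overlapping it, on a log axis. Circles are ratios of summit pileup over background with 95% exact binomial intervals, and squares are ratios of fold enrichment. Each interval crosses 1, and the widest belong to *Frzb* and *Lef1*, which have the smallest WT pileups.

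Around the genes, 144 of 156 WT peaks overlapped a deletion peak, or 92.3% (exact binomial 95% interval 86.9% to 96.0%), against 95.9% of all WT peaks. In the other direction, 140 of 251 deletion peaks overlapped a WT peak, or 55.8% (49.4% to 62.0%), against 49.4% of all deletion peaks. At the 144 WT peaks with a partner, the median log2 ratio of fold enrichment was 0.30, and over all 87274 such peaks it was 0.28. At least 1.5-fold higher fold enrichment was found for 39 of the 144, or 27.1%, against 26.2% of all. None was at least 1.5-fold lower, against 0.893% of all. In scaled pileup the median log2 ratio was 0.08 around the genes and −0.01 over all.

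**Figure D5:**
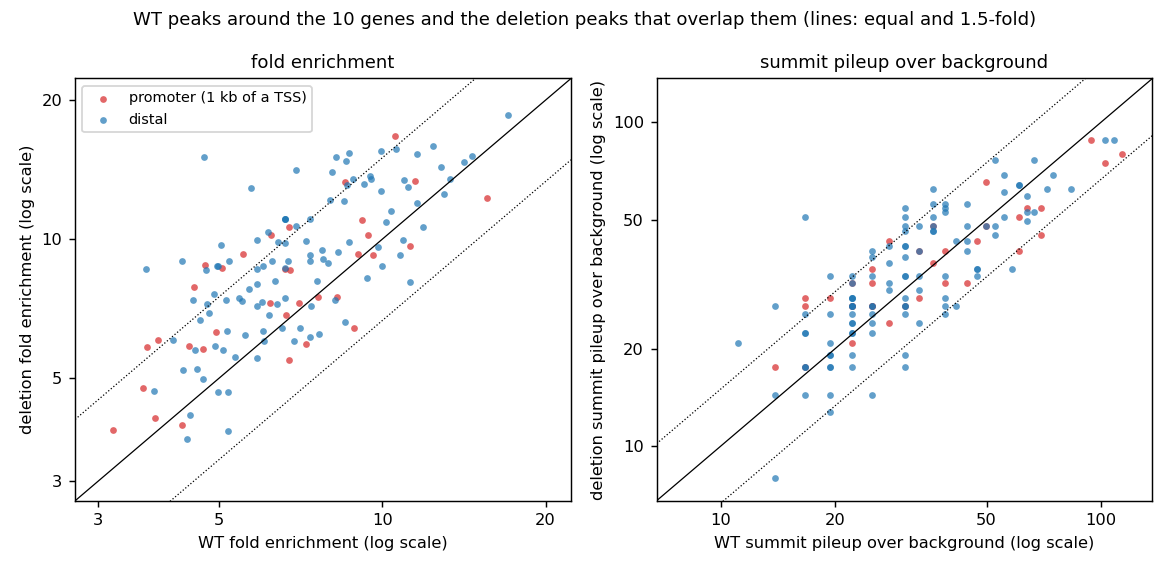
WT peaks around the 10 genes against the deletion peaks that overlap them, as fold enrichment (left) and as summit pileup over background (right), on log axes, with red points within 1 kb of any GENCODE TSS and blue points elsewhere. The solid line marks equal values and the dotted lines 1.5-fold. Fold enrichment lies mostly above the solid line, with a median log2 ratio of 0.30, and scaled pileups lie around it, with 0.08.

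The interval of the scaled ratio lay above 1 at 1 of the 144 pairs, against 1.99% of all, and below 1 at none, against 1.35% of all. That pair lies in an intron of *Axin2*. The WT peak from 108808941 to 108809057 had a fold enrichment of 4.69 on a pileup of 6, and the deletion peak from 108808985 to 108809369 had 15.03 on a pileup of 32, a ratio of 3.07 (1.27 to 8.98). The same deletion peak also overlapped a stronger WT peak, from 108809233 to 108809333, with a fold enrichment of 8.22 on a pileup of 11, whose summit is the nearer one. Of the 144 pairs, 135 had summits within 150 bp, and among these none had an interval without 1. This limit was chosen after seeing the data, and the share over all pairs within it was not counted.

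The other pairs at the extremes also had intervals that included 1. In an intron of *Wnt9a*, 17186 bp from the TSS, WT had a fold enrichment of 3.68 and the deletion sample 8.61, on pileups of 4 and 13, and no Cho peak was called. In an intron of *Erc2*, −48213 bp from *Wnt5a*, it was 5.72 in WT and 12.9 in the deletion sample, with 4.22 and 18.26 in the Cho samples. At the low end were the distal site of *Ctnnb1* in *Ulk4*, with 11.27 in WT and 8.07 in the deletion sample, the promoter of *Wnt9a*, and an exon of *Fbxl14* in the *Wnt5b* region, with 5.19 and 3.85. The scaled ratios at these 3 were 0.603, 0.645 and 0.653, with intervals that reached 1.15, 1.15 and 1.40.

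Some peaks were called in 1 of the WT and deletion libraries. There were 12 WT peaks with no deletion partner. The strongest were in an intron of *Wnt5b*, at 7.35 on a pileup of 9, in an exon of *Hadh* downstream of *Lef1*, at 5.88 on a pileup of 7, and 21961 bp past the nearest *Axin2* TSS, at 5.72 on a pileup of 9. The *Hadh* site was also called in Cho 2, at 8.12. There were 111 deletion peaks with no WT partner. The strongest lay −10434 bp from *Ctnnb1*, at 15.99 on a pileup of 25. It was also called in both Cho samples, at 5.91 and 15.22. The next lay −21308 bp from *Wnt5b*, at 12.91, with 3.38 and 9.41 in the Cho samples. The third lay in an intron of *Cdc42*, 68217 bp from *Wnt4*, at 12.69, with 6.76 in Cho 1. These 3 peaks, picked as the strongest, were all present in a Cho library, but the share among all 111 was not counted. Of the matched sites, 36 were called in the deletion sample alone. WT had the lowest depth, whose part in these calls was not tested.

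The rest of the pathway was surveyed at promoters. Of 19 Wnt ligands, 11 had a promoter peak in Cho 1, 14 in Cho 2, 10 in WT and 16 in the deletion sample. *Wnt7b* and *Wnt8b* had none, and *Wnt11*, a ligand that acts largely without β-catenin, had a WT fold enrichment of 10.25, the highest among the ligands, while in scaled pileup it had 63.8 and *Wnt9a* led with 69.4. Of 13 secreted antagonists, 8, 12, 7 and 11 had a peak. *Sost*, the sclerostin gene of osteocytes, had none in any library. *Sfrp1*, a Frizzled-related protein, reached 14.36 in Cho 1, 23.9 in Cho 2, 15.89 in WT and 16.52 in the deletion sample, and *Wif1*, the Wnt inhibitory factor, 8.02, 25.16, 13.19 and 15.92. Both stood above *Frzb* and *Dkk3* in WT and the deletion sample.

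Receptors and intracellular parts were called more evenly. Of 14 receptor genes placed, 13 had a promoter peak in Cho 1 and all 14 in each of the other libraries. *Ror2*, the receptor of WNT5A, had 6.76 in Cho 1, 10.89 in Cho 2, 17.4 in WT and 16.39 in the deletion sample. R-spondins and their receptors, which potentiate the pathway, were called for 8, 8, 7 and 9 of 9 genes. The secretion genes *Porcn* and *Wls* were called in every library, as were 9 of 9 nuclear effectors. Of 10 cytoplasmic transducers placed, 9, 8, 10 and 10 were called. Set beside the shares of all genes, the 19 ligands and 13 antagonists had 11 and 8 called in Cho 1 (62.6% of all genes) and 10 and 7 in WT (65.9%). They had 14 and 12 called in Cho 2 (69.4%) and 16 and 11 in the deletion sample (71.5%). The same shares stand beside the counts of the receptors and the other lists.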

How the data were processed

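Chromatin of primary rib chondrocytes was profiled by ATAC-Seq in 4 libraries, and each deposited file is the peak list of 1 library. According to the submitters' processing notes, the authors used fastp, Bowtie2 2.4.4, Picard 2.20.7, SAMtools 1.9 and MACS2 2.2.4 with the build mm9, and per the study methods MACS2 was run at a q-value of 0.05. The deposited columns are a score, a fold enrichment (a ratio of pileup to background with 1 added to both), a −log10 p-value, a −log10 q-value and the summit position. The deposited score restates the −log10 q-value, multiplied by 10. Cho replicate 1 has 1 constant background and several summits in some intervals, and why its settings differ is not given in the sources used here.

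Cho replicate 2 was read as GRCm38, since 69.4% of promoters held a summit with GRCm38 positions and 26.3% with NCBIM37 positions. GENCODE genes of NCBIM37 and RefSeq genes of GRCm38 were used, no coordinates were converted, and symbols had to match in both. The strongest summit of each interval was kept. Summit pileup and background were solved under the Poisson model of MACS2, within 0.002 of the deposited −log10 p-value or 0.01% of it. This solved 100% of intervals in the Cho lists, 99.981% in WT and 99.985% in the deletion library, and the solution was tested on simulated data. Overlap meant 1 bp or more. Intervals are exact binomial (Clopper-Pearson), at 95%, and cover counting error only, since no molecular identifiers are known. No test across genes was run, because each genotype had 1 library.

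The genes, gene lists and motifs were chosen with earlier results of these data known. Named distal sites were the strongest distal WT peak of each gene, the 3 highest and 3 lowest ratios among shared peaks with a pileup of at least 10 in WT or the deletion library, and the 3 strongest peaks found in only 1 of these libraries. The *Axin2* site before the TSS, the *Wnt3a* intron site and the named genes of the other lists were chosen after their values were seen. Alternatives covered q-values, equal list sizes, windows, TSS sets, overlap and measures. Python 3.11.15, numpy 2.4.6, pandas 2.3.3, scipy 1.17.1, pysam 0.24.0 and samtools 1.23.1 were used. *Fzd10*, *Amer1*, *Runx2* and *Spi1* could not be placed in both annotations.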

Additional observations from a re-analysis of the deposited data

How the results depend on the processing

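Of 62 values recomputed under other settings, 51 kept their size, 10 moved and 1 reversed. The median log2 ratio of deletion to WT at the 10 promoters was 0.16 in fold enrichment, −0.12 in summit pileup over background, 0.63 in −log10 q-value and 0.04 with the deletion peak that overlaps the WT peak. At the shared peaks it was 0.30, and it moved to 0.078 in summit pileup over background and to 0.83 in −log10 q-value. The measures differ in how they treat depth and the background at each summit. With equal numbers of strongest peaks, 76242 for each list, the peaks around the genes numbered 132 for Cho replicate 2 and 133 for the deletion library instead of 250 and 251, and the share of WT peaks with a deletion partner was 84.9%. That share was 96.3% among peaks with a −log10 q-value of at least 5. Within 100 kb of the gene bodies, Cho replicate 1 had 136 peaks instead of 90. Members with a promoter peak ranged from 8 to 10 in every library under every setting tried. The median Cho fold enrichment was 9.60, ran from 9.50 to 9.71 with 1 replicate left out, and was 20.43 as summit pileup over background. Sites called in all 4 libraries, 51 in number, became 48 at 50 bp and 52 at 300 bp, and 111 without Cho replicate 1. These site settings and the pairing by summits, which gave 0.30, were chosen after seeing the data. TSSs of protein-coding transcripts alone could not be tried for Cho replicate 2, whose table does not mark them. No paired analysis was possible because each genotype had 1 library. The part of depth in which weak peaks are called was not tested. Ratios of small pileups have wide counting intervals, such as 0.59 to 4.19 at the *Frzb* promoter.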
